A study of Mus musculus with 12 samples.

Results

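Few genes passed the test for a difference between Mbd2 knockout and wild-type normal double-positive thymocytes. With 3 arrays per genotype, smaller changes of other genes could be missed. The comparison took the 3 arrays labelled MBD2 knockout and the 3 labelled MBD2 wild type for CD4+CD8+ thymocytes, 6 of the 12 arrays of the study, and every probe set that names a single gene. The thymocytes were sorted by flow cytometry from steady-state mice that were either MBD2 wild type (MBD2+/+) or MBD2-/-, with no other allele or agent in the labels, and served beside Notch1-driven T-cell acute lymphoblastic leukaemias (T-ALL) of the same genotypes. Those leukaemias were GFP+ bone marrow cells of transplanted recipients, 3 arrays per genotype. The labels give neither the design of the deleted allele nor the age, sex or litter of the thymocyte donors, and do not say whether animals were pooled, so a p-value here speaks of the spread among these 6 samples, which may be technical. The deletion is not described as limited to T cells.

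MBD2 binds DNA at CpG dinucleotides whose cytosines are methylated and recruits the NuRD complex, which removes histone acetyl groups and remodels nucleosomes, so that it is known as a reader of methylation at silent promoters. Double-positive thymocytes make up most of the thymus. They carry both CD4 and CD8, recombine the T-cell-receptor alpha locus with the RAG recombinase and await positive selection into single-positive cells.

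The arrays carried the labelled cell type. All 8 measured double-positive markers (Cd4, Cd8a, Cd8b1, Rag1, Rag2, Ptcra, Ccr9 and Cd3e) lay above 35.3, the highest intensity of a control probe set without a target, and their summed intensity was 35440 to 46220 on wild-type arrays and 33740 to 44680 on knockout arrays. Cd4 was at 1654, 1886 and 1351 in wild-type and at 1376, 1844 and 1285 in knockout cells, a log2 difference of −0.12 (SE 0.18, adjusted p = 0.987). Cd8a differed by log2 0.09 (SE 0.20, adjusted p = 0.992) and Cd8b1 by −0.24 (SE 0.30, adjusted p = 0.987). For all of these co-receptor genes the groups overlapped. The recombinase gene Rag1 was at 12423, 11991 and 8889 in wild-type and at 9207, 12588 and 11545 in knockout cells. In bulk RNA of a sorted population, fewer cells of a type and less RNA per cell cannot be told apart.

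The arrays varied along an axis other than genotype. The Gapdh 3' to 5' signal ratio, which is higher for shorter or more degraded RNA, was 1.08, 1.14 and 3.68 on wild-type arrays 1 to 3 and 3.33, 2.10 and 1.12 on knockout arrays 1 to 3. The first principal component held 49.7% of the variance and ordered the arrays nearly as this ratio did, with wild-type array 3 beside knockout array 1. Log2 values of array pairs correlated at 0.979 to 0.992 within a genotype and at 0.978 to 0.993 between genotypes. Wild-type arrays 1 and 2 also gave poly-A control signal (2567 and 3524 for the 3' dap control), whereas wild-type array 3 and all knockout arrays gave 4.25 to 5.14. Knockout thymocytes thus have no array with this signal, and wild-type array 3 is the only wild-type array that can be set against them without it. Across genes, 1359 followed the Gapdh ratio at an adjusted p under 0.05.

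**Figure D1:**
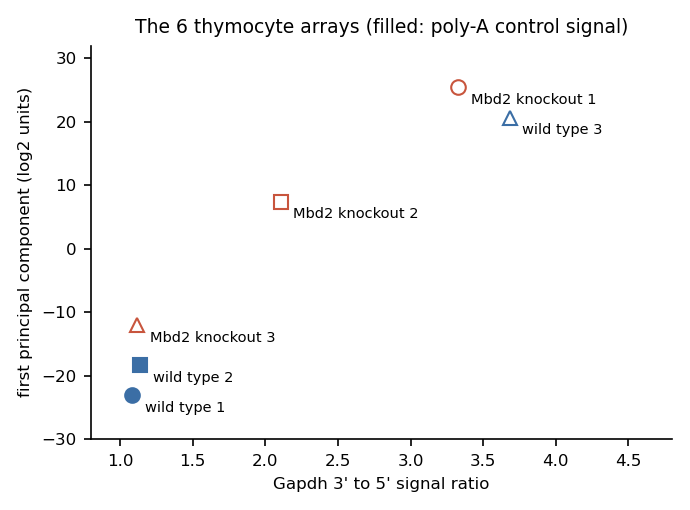
First principal component of the 6 thymocyte arrays (y axis, log2 units) against their Gapdh 3' to 5' signal ratio (x axis); blue points are wild-type and red points knockout arrays, and filled points gave poly-A control signal. Wild-type array 3 (3.68) and knockout array 1 (3.33) lie together at the upper right, so the axis crosses the genotypes.

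Of 15420 genes tested, 5 passed an adjusted p under 0.05 (0.0324%), of which 3 were higher (0.0195%) and 2 lower (0.013%) in knockout thymocytes. The higher genes were Myh10, Pkn3 and Snx10, and the lower genes were Mbd2 itself and Fgf13. Without adjustment, 722 genes had p under 0.05 (4.68%), 307 higher (1.99%) and 415 lower (2.69%). For 1333 genes (8.64%) the groups did not overlap, with 626 higher (4.06%) and 707 lower (4.58%). The median log2 difference over all tested genes was −0.02. The number of calls rested on single arrays: it was 1, 2 or 4 without wild-type array 1, 2 or 3, and 1, 2 or 1 without knockout array 1, 2 or 3.

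The precision of the comparison limits what the other genes could have done. The 95% confidence interval of the log2 difference lay within −1 to 1 for 14752 genes (95.7%) and within −0.5 to 0.5 for 9483 (61.5%). The median half-width of the interval was 0.31. A log2 difference of 1 or more in either direction was estimated for 25 genes, of which 4 were called and 18 had groups that did not overlap.

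**Figure D2:**
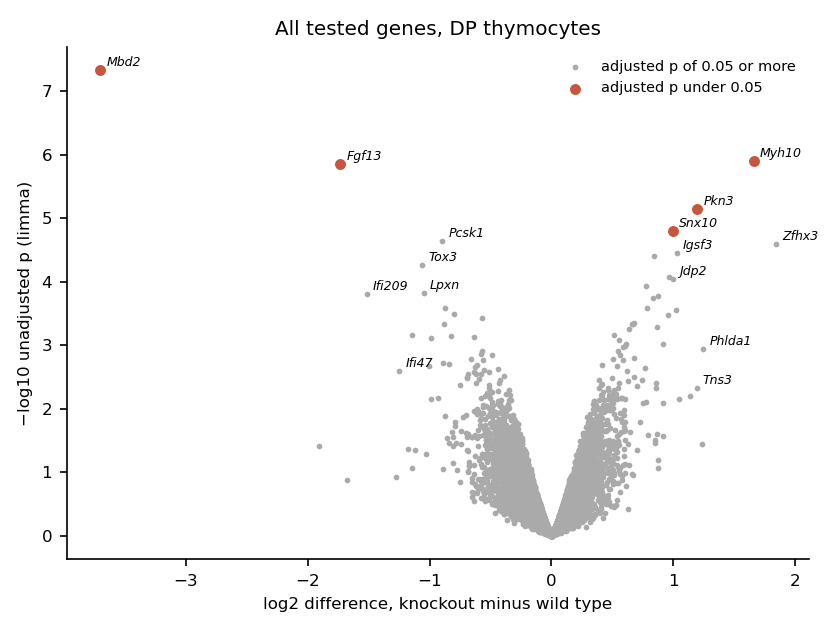
Log2 difference between knockout and wild-type thymocytes (x axis) against −log10 of limma's unadjusted p (y axis) for the 15420 tested genes, with the 5 called genes in red. Mbd2 and Fgf13 lie far to the left, Myh10, Pkn3 and Snx10 to the right, and Zfhx3 lies furthest right without passing, at a position that depends on the added constant because its wild-type arrays are below background.

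Because MBD2 reads methylated CpG, the sequence at the start of each called gene other than Mbd2 is shown with its CpG dinucleotides in capitals. Each window is the most upstream of the gene's RefSeq promoter windows in GRCm38.p6, runs from 250 bases before a transcript start to 50 after it, and is written 5′ to 3′ on the gene's strand. The motif searched was CG, which reads the same on both strands. These letters show where methylation could lie, and methylation was not measured in these data.
Myh10 (chr11:68691665-68691964, plus strand): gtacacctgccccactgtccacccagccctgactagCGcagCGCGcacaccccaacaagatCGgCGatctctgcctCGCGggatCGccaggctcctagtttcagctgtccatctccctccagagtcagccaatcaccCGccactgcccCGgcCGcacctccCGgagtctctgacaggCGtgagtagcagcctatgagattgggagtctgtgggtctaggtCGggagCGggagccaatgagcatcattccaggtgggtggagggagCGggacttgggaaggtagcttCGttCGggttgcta
Pkn3 (chr2:30078448-30078747, plus strand): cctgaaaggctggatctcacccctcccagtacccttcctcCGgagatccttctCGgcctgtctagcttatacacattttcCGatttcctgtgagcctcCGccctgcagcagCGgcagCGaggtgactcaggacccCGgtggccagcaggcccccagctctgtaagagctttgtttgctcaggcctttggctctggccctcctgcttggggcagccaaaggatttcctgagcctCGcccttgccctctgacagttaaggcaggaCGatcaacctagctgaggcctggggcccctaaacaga
Snx10 (chr6:51523653-51523952, plus strand): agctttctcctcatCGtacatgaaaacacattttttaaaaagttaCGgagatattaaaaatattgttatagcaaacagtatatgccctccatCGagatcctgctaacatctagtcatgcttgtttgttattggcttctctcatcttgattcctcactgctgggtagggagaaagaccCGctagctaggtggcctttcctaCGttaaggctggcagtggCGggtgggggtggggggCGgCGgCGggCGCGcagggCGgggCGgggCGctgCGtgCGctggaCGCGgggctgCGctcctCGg
Fgf13 (chrX:59585523-59585822, minus strand): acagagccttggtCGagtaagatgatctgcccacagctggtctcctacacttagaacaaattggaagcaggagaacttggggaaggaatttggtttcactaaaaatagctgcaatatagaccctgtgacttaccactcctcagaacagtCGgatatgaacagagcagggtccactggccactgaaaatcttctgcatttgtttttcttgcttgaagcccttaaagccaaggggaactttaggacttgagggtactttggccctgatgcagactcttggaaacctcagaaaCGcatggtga
The Myh10 window held 18 CpG, a number that 29.7% of all promoter windows of the RefSeq table reach. Pkn3 held 9, reached by 45.8% of windows. The 3 windows of Snx10 held 20, 40 and 21 CpG, from the most upstream start to the most downstream. Fgf13 has 4 windows that differ widely, with 3 CpG in the window shown and then 40, 6 and 37 further downstream. A count of 40 is reached by 3.91% of windows. The array does not tell which start was used.

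Mbd2 was lost in every knockout sample. Its main probe set, for a gene on chromosome 18, read 1372, 993 and 1043 in wild-type and 67.6, 84.3 and 64.4 in knockout cells. Every knockout array was far below every wild-type array, though still above the background level of 35.3. The group mean was 1136 ± 206 in wild-type and 72.1 ± 10.7 in knockout cells (SD, n = 3 each), so that Mbd2 fell by 3.70 on the log2 scale (SE 0.16, 95% confidence interval −4.07 to −3.33, adjusted p = 0.000718). The second Mbd2 probe set read 454, 301 and 110 against 21.8, 12.4 and 12.9, a log2 difference of −3.08 (SE 0.45, adjusted p = 0.360 in the fit of all probe sets). The knockout values of this probe set are at background, so that wild-type cells were at least 7.00-fold higher, and its wild-type values are spread over a wider range than those of the first. Where either probe set lies relative to the deleted sequence is not given in the sources used here.

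The genes next to Mbd2 can carry sequence of the strain in which an allele was made. Of the 5 genes on each side, 9 were tested and 0 were called. Me2, a mitochondrial malic enzyme, read 513, 410 and 355 in wild-type and 255, 232 and 352 in knockout cells (log2 −0.58, SE 0.19, adjusted p = 0.973). Elac1, a tRNA 3' processing enzyme, read 97.4, 115 and 93.7 against 76.1, 75.3 and 74.3 (log2 −0.37, SE 0.11, adjusted p = 0.883). Groups did not overlap for these 2 of the 9, beside 8.64% of all tested genes. Smad4, the shared mediator of TGF-beta signalling, differed by log2 −0.06 (SE 0.13, adjusted p = 0.992). In knockout leukaemias Me2 was also lower (log2 −0.77, adjusted p = 0.0298), and its effects differed by 0.19 (adjusted p = 0.788). Elac1 had the opposite sign there (log2 0.32, adjusted p = 0.171). The neighbours 4930503L19Rik, Stard6 and Smad4 passed in leukaemia too, at log2 −1.28, −0.46 and 0.50, beside 20.2% of all tested genes.

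Myh10 encodes the heavy chain of non-muscle myosin IIB, a motor that contracts actin filaments. It read 53.2, 69.5 and 64.9 in wild-type and 229.9, 240.1 and 224.3 in knockout thymocytes. The knockout arrays lay close together, each more than 3 times as high as any wild-type array. The mean rose from 62.5 ± 8.39 to 231 ± 8.02, a log2 difference of 1.66 (SE 0.11, adjusted p = 0.00723). Its second probe set was below background on every array (17.6 to 30.5).

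The other chains of non-muscle myosin II moved less. Of 6 family genes tested, Myh10 was the only one called. Myh9, the heavy chain of myosin IIA, read 5878, 5406 and 5820 against 7479, 6594 and 6105 (log2 0.23, SE 0.11, adjusted p = 0.982). The regulatory light chain gene Myl12a read 2380, 2633 and 2632 against 2996, 3037 and 2925 (log2 0.23, SE 0.09, adjusted p = 0.982). Neither of these genes passed. With Myh10, groups did not overlap and knockout was higher for 3 of the 6 genes, beside 4.06% of all tested genes. The family was taken up because Myh10 was called, so that the separation of Myh10 in this count is no further observation. In leukaemia Myl12a had the opposite sign (log2 −0.35, adjusted p = 0.108) and Myh9 the same sign (log2 0.76, adjusted p = 0.0113). Myh14, Myl6 and Myl12b differed by 0.13, −0.03 and −0.07 with overlapping groups.

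Pkn3 encodes a kinase of the protein kinase N family. It read 92.7, 97.0 and 110.4 in wild-type and 257, 258 and 234 in knockout cells. Again the knockout arrays all lay above the wild-type arrays, with a narrow spread in each group. The mean rose from 100.03 ± 9.24 to 249.8 ± 13.5 (log2 1.20, SE 0.10, adjusted p = 0.0279). Pkn2, the other family member tested, read 627, 410 and 544 against 399, 340.2 and 469, with overlapping groups (log2 −0.37, SE 0.18, adjusted p = 0.982).

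Snx10 encodes a sorting nexin of endosomes that acts in lysosomal trafficking. It read 53, 49.9 and 45.4 in wild-type and 118, 108 and 117 in knockout cells. Every knockout array was higher than every wild-type array. The mean rose from 49.4 ± 3.83 to 115 ± 5.66 (log2 1.00, SE 0.10, adjusted p = 0.0495, just inside the threshold). Its second probe set was below background on every array (18.4 to 34.0). Of 27 sorting nexin genes tested, Snx10 was the only one called, and the median log2 difference of the family was −0.09. The endosomal Snx9 read 33.8, 35.9 and 32.1 against 29.9, 25.2 and 22.7 (log2 −0.25, adjusted p = 0.982), and Snx20, which is expressed in leukocytes, read 114, 112 and 113 against 94.0, 79.7 and 98.4 (log2 −0.28, adjusted p = 0.982). These 2 genes of the 27 were lower without overlap, beside 4.58% of all tested genes, with differences a fraction of that of Snx10. Both were named for their small p, so that the separation of their groups is no further observation. For Snx9 only the wild-type value of 35.9 was above background, so the size of its difference is uncertain.

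Fgf13 is X-linked and encodes an FGF homologous factor, a protein that stays inside the cell and binds sodium channels and microtubules. It read 755, 754 and 771 in wild-type and 231, 185 and 239 in knockout thymocytes. The wild-type arrays were nearly identical, and all knockout arrays lay below them. The group means were 760.1 ± 9.11 and 218 ± 29.5, a fall by log2 −1.73 (SE 0.12, adjusted p = 0.00723). The second Fgf13 probe set was below background on every array (10.9 to 23.7). Fgf11 and Fgf14, related factors, differed by 0.24 and 0.13 with overlapping groups. Fgf14 was below background on every array, and Fgf11 lay at 27.5 to 35.5 except on knockout array 1, where it read 60.6.

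**Figure D3:**
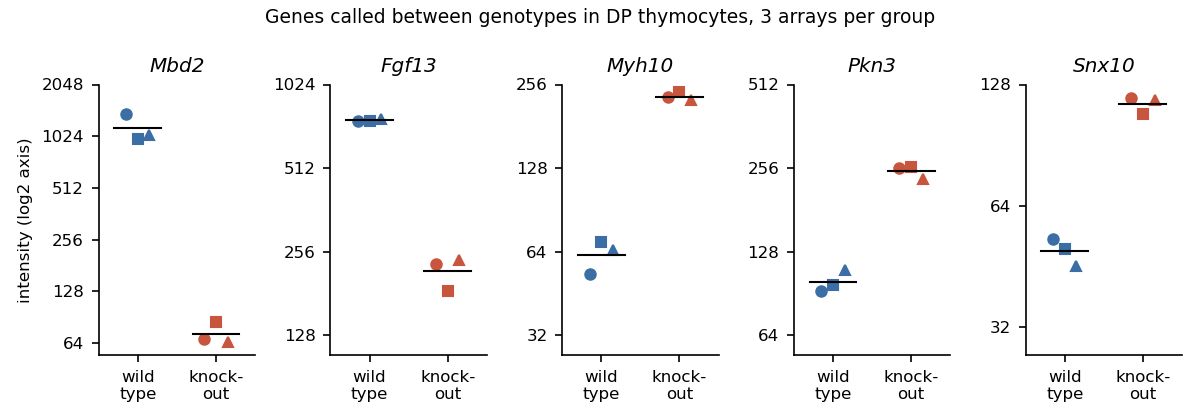
Intensity of the 5 called genes on each thymocyte array (log2 axis, own scale per gene); circles, squares and triangles are arrays 1, 2 and 3, blue wild type and red knockout, and bars are group means. In each panel the groups are separated by a gap wider than the spread within either group, as for Fgf13 with 754 to 771 against 185 to 239.

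The called genes lost part of their size when all probe sets of a gene were averaged, weak ones included: Myh10 was then at 0.96, Fgf13 at −1.06 and Snx10 at 0.66 (adjusted p = 0.0306, 0.0184 and 0.0751). They kept their sizes when RNA quality or the poly-A control set was taken into account, but not always their calls. With the log2 Gapdh ratio as a covariate all 5 passed, with Myh10 at 1.65, Fgf13 at −1.73, Pkn3 at 1.17 and Snx10 at 1.01, and 10 genes were called in all. Against wild-type array 3 alone, the only wild-type array without poly-A signal, the log2 differences were −3.59 for Mbd2, 1.61 for Myh10, −1.75 for Fgf13, 1.07 for Pkn3 and 1.09 for Snx10. In that fit, where the lone array is assumed to vary like the knockout arrays, Mbd2 was the only gene called (adjusted p = 0.0108), with Myh10 at 0.282 and Fgf13 at 0.302. Without wild-type array 3 and knockout array 1, the arrays with the highest Gapdh ratios, Mbd2 was again the only call (log2 −3.72, adjusted p = 0.031), while Myh10 (1.69), Fgf13 (−1.77) and Pkn3 (1.24) each had an adjusted p of 0.129.

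The same genes were read in the leukaemias, which share no array with the thymocytes. Mbd2 fell there by log2 −3.58, and the effects differed by −0.12 (adjusted p = 0.818). Myh10 rose from 351 ± 41.9 to 1290.3 ± 229 in knockout leukaemias (log2 1.83, adjusted p = 2.15e-06), and its effects differed by −0.16 (adjusted p = 0.691). Pkn3 rose from 167 ± 18.1 to 286 ± 66.3 (log2 0.71, adjusted p = 0.00606), with a difference of effects of 0.49 that did not pass (adjusted p = 0.192).

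Fgf13 and Snx10 had different genotype effects in the 2 cell types. Fgf13 was at background in wild-type leukaemias and rose in knockout leukaemias, from 13.5 ± 2.15 to 71.4 ± 16.3 (log2 1.55, adjusted p = 7.77e-06), the opposite of its fall in thymocytes. Measured from the background level of 35.3, knockout leukaemias were at least 1.99-fold higher. The thymocyte effect minus the leukaemia effect was −3.29 (adjusted p = 6.50e-07), a size that depends on the added constant (−4.11 with 1, −2.35 with 64) and was −1.79 with the mean of probe sets. Snx10 was at 159 ± 29.1 and 147 ± 16.7 in wild-type and knockout leukaemias (log2 −0.10, adjusted p = 0.685), and its effects differed by 1.09 (adjusted p = 0.00149), or by 0.68 with the mean of probe sets. In the same fit of 12 arrays the effects differed for 12.6% of all tested genes, and 20.2% were called in leukaemia. Of the 722 thymocyte genes at an unadjusted p under 0.05, 41.8% had the same sign in leukaemia, beside 47.7% of all tested genes. The leukaemia genotypes also differ in the sex-linked transcripts Xist (log2 −6.32) and Eif2s3y (at least 14.7-fold higher in the knockout). Mean Xist was 4193 in wild-type and 36.5 in knockout leukaemias, and mean Eif2s3y 7.31 and 519, a pattern of female wild-type and male knockout cells. In thymocytes the log2 differences were 0.13 and −0.53 (adjusted p = 0.987 and 0.982), with Eif2s3y at 189 to 531 on all arrays. For every gene, the genotype effect in leukaemia and the difference of effects therefore cannot be told apart from this difference of sex. Its part in the X-linked Fgf13 result was not tested.

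**Figure D4:**
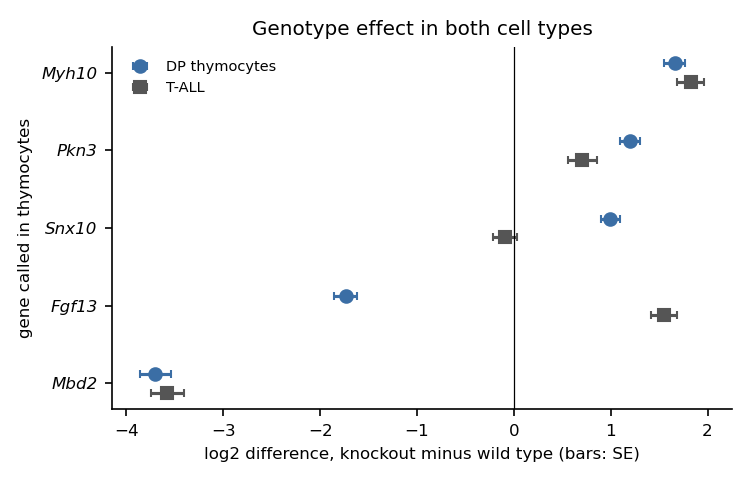
Log2 difference between knockout and wild type in DP thymocytes (blue circles) and T-ALL (grey squares) for the 5 genes called in thymocytes, with bars for the SE. Mbd2, Myh10 and Pkn3 have the same sign in both cell types, Fgf13 has opposite signs (−1.73 and 1.55), and Snx10 is near 0 in T-ALL.

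Several genes with large differences did not pass. They were chosen for the size of the difference among genes whose groups do not overlap, so their separation is no observation. Zfhx3, a large transcription factor with homeodomains and zinc fingers, read 17.7, 28.8 and 34.0 in wild-type and 164, 139 and 108 in knockout cells. All wild-type arrays were below background and all knockout arrays above it, at least 3.83-fold higher. The fitted log2 difference was 1.84 (SE 0.19, adjusted p = 0.0553), and 2.34 or 1.14 with an added constant of 1 or 64. A second Zfhx3 probe set read 26.4, 22.6 and 39.5 against 142, 158 and 87.0, and in the other 4 probe sets, which lay near or below background, each knockout array was also above the highest wild-type array. Zfhx3 passed with the Gapdh ratio as a covariate (log2 1.77, adjusted p = 0.0079), and it was at least 2.06-fold higher in knockout leukaemias too (adjusted p = 0.000655).

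Igsf3, a membrane protein of the immunoglobulin superfamily, read 137, 154 and 131 in wild-type and 286, 287 and 338 in knockout cells (log2 1.03, SE 0.11, adjusted p = 0.0662). In leukaemia it went the other way, at least 3.41-fold lower in the knockout, and the effects differed (adjusted p = 3.00e-07). Jdp2, a basic leucine zipper repressor of AP-1, read 53.9, 46.8 and 47.3 against 128, 95.5 and 121 (log2 1.00, adjusted p = 0.116), while its second probe set overlapped between groups (log2 −0.06). Phlda1, a gene induced by T-cell-receptor signals, read 338, 631 and 520.4 against 1103, 1423 and 1002 (log2 1.25, adjusted p = 0.439).

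The focal adhesion protein gene Tns3 had a log2 difference of 1.19 (adjusted p = 0.801), the oestrogen-responsive Greb1, below background in wild-type cells, of 0.95 (at least 1.97-fold, adjusted p = 0.236), the Wnt antagonist gene Dact1 of 0.92 (adjusted p = 0.394) and the pregnancy-specific glycoprotein gene Psg28 of 1.14 (adjusted p = 0.862). Greb1 was at least 2.88-fold lower in knockout leukaemias, and Tns3 was higher there (log2 3.77). Astx3 was above background only on knockout array 1 (123, beside 30.8 and 18 on the other knockout arrays).

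Among lower genes, Pcsk1, a prohormone convertase, read 53.9, 50.7 and 51.1 in wild-type and 21.3, 21.7 and 18.6 in knockout cells, which puts all knockout arrays below background (at least 1.47-fold lower, fitted log2 −0.89, SE 0.09, adjusted p = 0.0553). Tox3, a high-mobility-group box factor, read 140.2, 129 and 123 against 59.4, 44.4 and 60.3 (log2 −1.06, SE 0.12, adjusted p = 0.0846). Lpxn, an adaptor of the paxillin family, read 583, 583 and 443 against 256, 221 and 274 (log2 −1.05, adjusted p = 0.161).

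Ifi209, a member of the interferon-inducible p200 family, read 1222, 1010 and 854 in wild-type and 456, 334 and 271 in knockout cells (log2 −1.52, SE 0.21, adjusted p = 0.161), and its second probe set had a difference of −1.41. Ifi47, an interferon-inducible GTPase, read 1377, 820.5 and 1047 against 324, 399 and 636 (log2 −1.25, adjusted p = 0.639). Samd9l and Epsti1, also interferon-responsive, differed by −0.93 and −0.99 (adjusted p = 0.862 for both). Of 35 tested genes in the list of interferon-stimulated genes, 0 were called, 1 was lower at an unadjusted p under 0.05 (Gbp2, log2 −0.60) and 3 were lower without overlap, beside 2.69% and 4.58% of all tested genes. The list does not hold Ifi209, Ifi47, Samd9l or Epsti1, and its lowest log2 difference was −0.65. The first count is near its share of all tested genes and the second is above it. The median of the list was −0.17, and 0.03 without wild-type array 1.

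The leukocyte tetraspanin gene Cd53 had a log2 difference of −1.14 (adjusted p = 0.340), the glucocorticoid-activating enzyme gene Hsd11b1 of −1.0 (adjusted p = 0.591) and the cyclic-nucleotide-gated channel gene Cnga1 of −0.99 (adjusted p = 0.351). In leukaemia Cd53 and Hsd11b1 had the opposite sign (2.43 and 1.04).

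Genes that work with MBD2 or on the mark it reads were not called. Among 14 tested NuRD subunits and 11 genes of the DNA methyltransferase and TET pathway, 0 had an unadjusted p under 0.05, and the medians were −0.02 and 0.00. The NuRD ATPase gene Chd4 read 2194, 1425 and 3339 in wild-type and 2758, 1964 and 2256 in knockout cells. Mbd3, the paralogue of Mbd2 found in a separate form of NuRD, read 467, 291 and 246 against 220.1, 242 and 409.7 (adjusted p = 0.987). Both genes varied more within the groups than between them.

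Of 14 tested methyl-CpG readers, Mbd2 was the only one called. Mbd1 read 1727, 1164 and 1339 against 744, 1009 and 1057 (log2 −0.58, SE 0.19, adjusted p = 0.973), and Zbtb38, a zinc finger reader of methylated DNA, read 107, 157 and 97.0 against 212, 184 and 210.0 (log2 0.70, SE 0.17, adjusted p = 0.789). Both genes were named for their small p, so that the separation of their groups is no further observation. The maintenance methyltransferase gene Dnmt1 read 2434, 2248 and 1822 against 1672, 1882 and 2566, with overlap.

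Classes of genes that DNA methylation is known to silence showed 0 calls. Of 28 germline genes listed, 11 passed the filter on low values, and the highest was Tex15 (25.3, 19.9 and 15.6 against 27.8, 29.6 and 31.2), which stayed at background in both groups. Brdt, a testis bromodomain gene, read 596, 514 and 495 against 291, 386 and 348 (log2 −0.63, adjusted p = 0.603). Of 24 tested imprinted genes, the CDK inhibitor gene Cdkn1c had the largest difference (82.8, 83.8 and 103 against 145, 133 and 141, log2 0.56, adjusted p = 0.484). The median of the imprinted list was 0.01.

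Genes of thymocyte identity and maturation gave differences within the noise or shifts without calls. Of 19 tested double-positive identity genes, 0 had an unadjusted p under 0.05 and the median was −0.03. Of 24 genes of single-positive thymocytes and thymic egress, 0 were called, 6 were lower at an unadjusted p under 0.05 and 0 higher, beside 2.69% and 1.99% of all tested genes, and the median was −0.26. Among them the chemokine receptor gene Ccr7 read 109, 62.9 and 71.5 in wild-type and 44.1, 51.2 and 43.3 in knockout cells (log2 −0.61, adjusted p = 0.883), and Ms4a4b read 204, 170.4 and 193 against 113, 151 and 118 (log2 −0.53, adjusted p = 0.846). The GTPase genes Gimap3 and Gimap7 of lymphocytes differed by −0.51 and −0.79 (adjusted p = 0.801 and 0.973).

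The size of this shift varied with the arrays used. The median of the list was −0.02 against wild-type array 3 alone, and −0.46 without that array. Without any other single array it was −0.16 to −0.32, and it was below 0 in all 22 settings. What carries the shift was not tested. The summed intensity of 10 single-positive markers, all above background, was 4444 to 5080 on wild-type and 3280 to 4421 on knockout arrays. That of 10 double-negative markers, 5 of them above background, was 451 to 527 against 386 to 427. The largest falls in that sum were of Il7r and Cd44 (means 92.6 against 57.4 and 84.3 against 65.2). Il7r is also among the single-positive markers and read 142 on wild-type array 1. Kit (29.5 against 30.6) and Erg (35.4 against 36.9) were not lower, and Bcl11a was at 62.5 against 60.7. The single-positive sum is carried by Cd52 and Ms4a6b: Cd52 read 2513, 2145 and 3292 in wild-type and 2642, 2392 and 1902 in knockout cells, with overlap, and Ms4a6b read 988, 928 and 1016 against 915, 684 and 578. Of the other single-positive markers, Ccr7, Klf2, Il7r, Cd69 and Ms4a4b also had lower means in knockout cells. The lineage factor genes Zbtb7b (mean 39.0 against 41.2) and Runx3 (89.0 against 94.1) and the receptor gene S1pr1 (51.6 against 55.8) did not.

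Of 32 tested genes of T-cell-receptor signalling, 0 were called, 2 were lower and 0 higher at an unadjusted p under 0.05 (2.69% and 1.99% of all tested genes), and the median was −0.18. Prkcq, the kinase PKC-theta, read 2313, 1974 and 2270 against 1480.1, 1367 and 1562 (log2 −0.57, SE 0.11, adjusted p = 0.449), and Tespa1, which couples the receptor to calcium signals in thymocytes, read 1104, 1062 and 944 against 890, 617 and 845 (log2 −0.41, adjusted p = 0.982). Both genes were named for their small p, so that lower values on every knockout array are no further observation. The median of this list was 0.06 against wild-type array 3 alone.

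Signalling lists of thymocyte development held 0 calls. Of 22 tested genes of the Notch pathway, 2 were lower and 0 higher at an unadjusted p under 0.05 (2.69% and 1.99% of all tested genes), and the median was −0.03. Notch1 itself, which drives the leukaemias of the study, read 1683, 1379 and 1725 in wild-type and 1330, 1588 and 1752 in knockout thymocytes, with overlapping groups (log2 −0.04, SE 0.14, adjusted p = 0.992). The pseudokinase gene Trib2 read 1262, 1094 and 699.97 against 465, 503 and 853, where knockout array 3 lay within the wild-type range (log2 −0.74, adjusted p = 0.982). Myc, a Notch1 target in T cells, read 97.3, 110.04 and 47.9 against 35.4, 57.9 and 90.6, and also overlapped (log2 −0.39, SE 0.33, adjusted p = 0.982).

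Of 25 genes of positive selection and the immediate early response, 1 was lower and 0 higher by the same measure (2.69% and 1.99% of all tested genes), with a median of −0.16. It was the phosphatase gene Dusp2, which read 1043, 1588 and 1024 against 839, 687 and 771 without overlap (log2 −0.63, adjusted p = 0.891). Of 27 genes for homing, chemokine receptors and integrins, 1 was higher and 3 lower, beside 1.99% and 2.69% of all tested genes. The guidance receptor gene Nrp1 read 296, 295 and 500.3 against 681, 509.5 and 509.1 (log2 0.65, adjusted p = 0.982). The adhesion molecule gene Icam1 read 152, 133 and 152 against 69.98, 94.9 and 95.6 (log2 −0.66, adjusted p = 0.529), and the integrin gene Itgb7 read 195, 152 and 151 against 117, 90.8 and 94.9 (log2 −0.63, adjusted p = 0.640). Dusp2 and these 3 genes were named for their small p, so that the separation of their groups is no further observation.

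Of 21 tested Wnt targets and TCF/LEF factors, 3 were higher and 0 lower at an unadjusted p under 0.05 (1.99% and 2.69% of all tested genes), while the median was −0.03. Tcf7l1, a mostly repressive TCF factor, read 129.7, 159 and 104 against 232, 197 and 186 (log2 0.60, adjusted p = 0.862). Enc1 and Birc5 differed by 0.49 and 0.40 (adjusted p = 0.891 and 0.982). Of 31 Wnt antagonists, 1 was higher (Dact1) and 1 lower, the co-repressor gene Tle2 (log2 −0.41, adjusted p = 0.883). In the lists of 12 polycomb genes, 21 genes of p53 and its targets and 19 genes of cholesterol synthesis, 0 had an unadjusted p under 0.05. The BCL2 family and apoptosis list had 1 lower gene of 26, the kinase gene Dapk3 (log2 −0.61, adjusted p = 0.891).

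Proliferation and respiration lists lay slightly above 0. Of 46 tested mitosis genes, 0 were called, 6 were higher and 0 lower at an unadjusted p under 0.05 (1.99% and 2.69% of all tested genes), and the median was 0.15. The securin gene Pttg1 read 2980, 2834 and 3982 in wild-type and 7770, 5382 and 4805 in knockout cells (log2 0.86, SE 0.21, adjusted p = 0.801). Without knockout array 3 the median of the mitosis list was 0.00. Of 44 S phase genes, 2 were higher and 0 lower by the same measure (median 0.12), with the replication helicase factor gene Gins2 at log2 0.46 (adjusted p = 0.828). The S phase median was −0.01 without wild-type array 3 and 0.04 without knockout array 3.

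Of 43 oxidative phosphorylation genes, 0 were called, 3 were higher and 0 lower at an unadjusted p under 0.05 (1.99% and 2.69% of all tested genes), and the median was 0.17. The complex III subunit gene Uqcrq read 1339, 1272 and 1202 in wild-type and 2131, 2109 and 1812 in knockout cells (log2 0.66, SE 0.11, adjusted p = 0.268). The complex I subunit genes Ndufb10 and Ndufb3 differed by 0.41 and 0.28 (adjusted p = 0.891 and 0.982). Without wild-type array 2 the median of the list was 0.07. Of 18 tested glycolysis genes, 2 were lower and 0 higher, the glucose transporter gene Slc2a3 (601, 517 and 501 against 344, 357 and 423, log2 −0.51, adjusted p = 0.762) and the hexokinase gene Hk2 (log2 −0.34, adjusted p = 0.982).

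**Figure D5:**
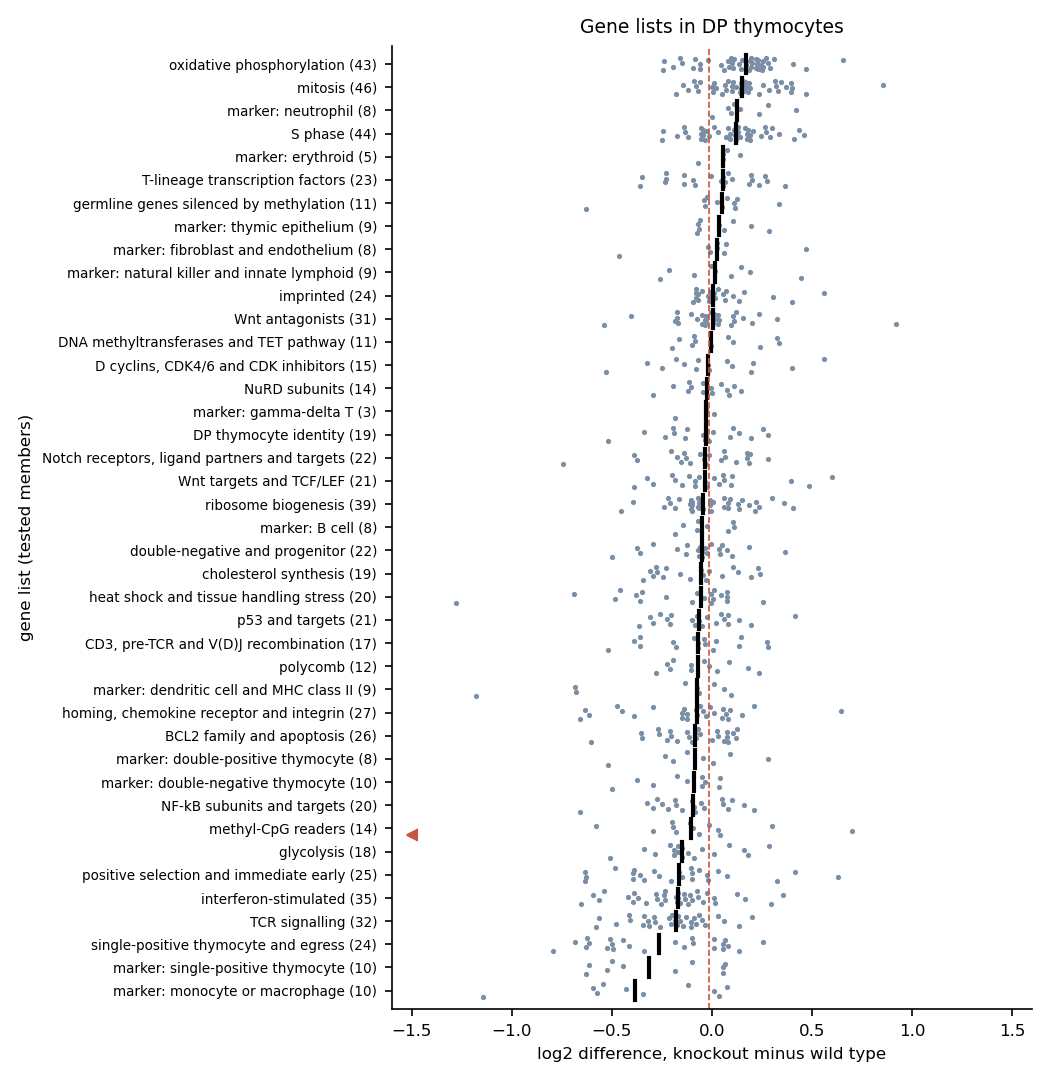
Log2 difference of each tested member (points) of the gene lists and the list median (black bar), sorted by median, without the sex-linked list and the families of called genes, and with the number of tested members in brackets; the dashed line is the median of all tested genes (−0.02) and the red arrowhead is Mbd2, which lies beyond the axis at −3.70. The medians drawn run from those of the monocyte and single-positive markers at the bottom to oxidative phosphorylation (0.17) at the top, and nearly all members lie within −1 to 1.

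Some transcripts of other cells were unevenly spread over the wild-type arrays. The summed intensity of 11 monocyte and macrophage markers was 397 to 923 on wild-type and 311 to 433 on knockout arrays, with 6 of the 11 above background (Adgre1, Mrc1, C1qb, C1qc and Cd14 were not). The lysozyme gene Lyz1 read 321, 66.9 and 94.9 against 29.4, 36.0 and 105.1, and the class II gene H2-Aa 423.5, 160.1 and 93.6 against 98.4, 51.5 and 78.8, so that wild-type array 1 was highest for both. Csf1r, another of the 11 markers, did not follow, at 72.9, 66.5 and 64.4 against 77.7, 80.3 and 54.5. The immunoglobulin gene Igha, named after its values were seen because its difference of −1.91 is among the largest (adjusted p = 0.982), read 831, 592 and 97.3 against 156, 91.4 and 43.6. In the B cell marker list, 0 of 8 tested genes had an unadjusted p under 0.05, and the median was −0.05. The immunoglobulin gene Ighm of that list read 6420, 5922 and 7428 against 6424, 6253 and 6667, with overlap. The neutrophil genes S100a8 and S100a9 were highest on wild-type array 1 (127 and 107) and knockout array 3 (152 and 104). All 5 measured erythroid markers were at background. Without wild-type array 1 the log2 differences of Myh10, Fgf13, Pkn3 and Snx10 were 1.57, −1.74, 1.15 and 1.04 (adjusted p = 0.052, 0.087, 0.227 and 0.246). For the lists, the part of these cells in the shifts was not tested.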

How the data were processed

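RNA was hybridized to Affymetrix mouse arrays from 7 µg of total RNA per sample, per the labels. The deposited table holds 1 intensity per probe set, unlogged (3.24 to 21620 on the thymocyte arrays), as summarized by the authors with steps not given in the sources used here. No normalization was added, since the log2 medians of the arrays were 5.71 to 5.79.

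Values were taken as log2(value + 16), which understates changes of low genes. Where every array of a group was at or below 35.3, the highest control without a target, the fold was computed from that level on log2 intensities and given as "at least". For 18193 genes the brightest single-gene probe set by mean over the 12 arrays was kept, and the 15420 genes that exceeded an array's 25th percentile on 3 or more of the 12 arrays were tested. Genotypes were compared with limma 3.58.1 (lmFit, eBayes) in R 4.3.3 on the 6 thymocyte arrays, with Benjamini-Hochberg adjustment over all tested genes, and every adjusted p is limma's. Leukaemia values and differences of effects come from a fit of all 12 arrays. With 3 arrays per group the smallest exact two-sided p of a single value is 0.1, and this number of arrays limits the precision. The script was tested on simulated data.

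Members, gene lists and tests were chosen with earlier results of these data known. Lists were only counted (30 lists, 12 marker lists and 4 families of called genes). Named are the called genes with their families, the 12 higher and 12 lower genes of largest difference that do not overlap, up to 4 members per list by smallest p, and fixed marker genes. Igha, Ighm, Csf1r, Rag1, Cd52, Chd4, Mbd3, Dnmt1, Lyz1, S100a8 and S100a9 were named after their values were seen. Promoter windows and gene order come from RefSeq tables of GRCm38.p6; 4 of the 5 called genes are shown. Figures used matplotlib 3.10.9 (Python 3.11.15).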

Additional observations from a re-analysis of the deposited data

Results flagged for a closer look

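The genotype effect of Fgf13 in thymocytes minus that in leukaemia was −3.29 on the log2 scale (limma, adjusted p = 6.50e-07), with a fall in thymocytes and a rise in leukaemia. For Snx10 the same difference was 1.09 (adjusted p = 0.00149), with a rise in thymocytes and a log2 value of −0.10 in leukaemia. Both were marked because the test of the difference itself passed. Neither can be told apart from the difference in sex-linked transcripts between the leukaemia genotypes. Over the alternatives the smallest values were −1.79 and 0.68, both with the mean of probe sets, and with an added constant of 1 or 64 the Fgf13 difference was −4.11 or −2.35, since Fgf13 was below background in wild-type leukaemias. Groups of 3 arrays were not searched for single outlying arrays.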

How the results depend on the processing

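The number of called genes moved most with the processing. It was 5 as reported, 11 with centring on the 75th percentile, 3 with every probe set tested, 11 with trend and robust estimation, 17 with array weights, 8 with an added constant of 1, 13 with all 12 arrays in the fit, 10 with the Gapdh ratio as a covariate, 1 with a block for poly-A signal, 1 with only arrays without poly-A signal, 1 without the 2 arrays of highest Gapdh ratio (an alternative chosen after seeing the data), and 1 to 4 with any array left out. In the other 5 settings with the 6 arrays (a constant of 64, quantile normalization, the mean of probe sets, no filter, or a filter at the median) it was 4 to 7; there Pkn3 lost its call with quantile normalization (adjusted p = 0.0502), and Snx10 with a constant of 64, a filter at the median and the mean of probe sets (0.0623, 0.071 and 0.0751). Equal replicate numbers do not pair the samples: deviations from the group means correlated at −0.52, 0.14 and −0.49. With the replicate number as a block 0 genes were called, 419 had an unadjusted p under 0.05, and Mbd2 had an adjusted p of 0.07 at the same difference of −3.70; Mbd2 passed in the other 21 settings. Intervals within −1 to 1 numbered 26430 when every probe set was tested, since more features enter, and 14752 genes as reported. Both differences of effects that passed did so in all 18 settings run. That of Mbd2 turned to 0.0106 with the 75th percentile and 0.133 with the mean of probe sets and ran from −0.22 to 0.0185 with an array left out, that of Myh10 turned to 0.0104 with a constant of 1, and that of Pkn3 became 0.69 (adjusted p = 0.0241) with array weights. Of the weakly expressed genes, Cd93 turned to 0.18 and Pdgfrb to −0.11 with a constant of 1. The brightest probe set of a gene was chosen again for each constant. On the reported probe sets of both genes the groups do not overlap, so that no constant can turn their sign. These 2 values therefore come from other probe sets of the same genes. The arrays separate intensities from background only above about 35.3.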
